A study of Mus musculus with 37 samples.

Results

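The genes described here are 40 mouse genes of proximal signalling by immunoreceptor tyrosine-based activation motif (ITAM) and immunoreceptor tyrosine-based inhibition motif (ITIM) receptors, taken by name from a fixed list among the 53700 gene identifiers counted in each library. Of these, 34 carry activating signals and 6 restrain them (Ptpn6, Ptpn11, Inpp5d, Csk, Cbl and Cblb). The list uses no measured value, but it was chosen with earlier results of these data known. All 40 were matched to 1 identifier each (gene positions below are from GENCODE M21 on GRCm38). They were measured by bulk RNA-seq in uterine natural killer (uNK) cells sorted from pregnant C57BL6 mice at gestation day 9.5 to 10.5. The 5 groups were uneducated WT cells, negative for both Ly49C/I and NKG2A (n = 9), NKG2A+ WT cells, negative for Ly49C/I (n = 9), Ly49C/I+ WT cells, negative for NKG2A (n = 6), uneducated cells of NKG2A KO mice (n = 8) and Ly49C/I+ cells of NKG2A KO mice (n = 5). Cells positive for both receptors were not collected, per the labels. All groups went through the gate that the methods give: live CD45+ Nkp46+ cells, negative for CD3, CD4 and CD8 among other lineage markers, with CD11b high cells left out. The labels name neither the knockout allele nor how many mice a library holds, so p-values measure the spread between libraries.

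An ITAM is a stretch of cytoplasmic tail with a pair of tyrosines that Src family kinases phosphorylate and that Syk or Zap70 then binds. NK cells use it through small signalling subunits, since their activating receptors have short tails of their own, and the signal passes by adaptors (Lat, Lcp2), exchange factors (Vav proteins), phospholipase C gamma and PI3K to calcium, NFAT and NF-kappaB. Inhibitory receptors such as NKG2A and the Ly49C and Ly49I receptors carry ITIMs, which recruit the phosphatases encoded by Ptpn6, Ptpn11 and Inpp5d. NK cells with such a receptor for self MHC class I are called educated. The comparisons ask how educated uNK cells differ from uneducated ones, and how each differs between NKG2A KO and WT mice.

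Library size ranged from 13287163 to 18875033 reads on genes (median 17273311). The number of genes with a read ranged from 13982 to 17859, and the 4 libraries with the fewest had 13982 to 14197 (NKG2A+ WT 9, uneducated WT 5, Ly49C/I+ WT 5 and Ly49C/I+ NKG2A KO 5). Klrc1, which encodes NKG2A, ran from 498 to 766 CPM (read counts scaled to a common library size) in NKG2A+ libraries and reached no more than 13.9 CPM in any other library. Klra9, which encodes Ly49I, ran from 468 to 1146 CPM in the Ly49C/I+ libraries of both genotypes and from 50.4 to 124 CPM elsewhere. Klra3, which encodes Ly49C and shares sequence with other Ly49 genes, was not higher in Ly49C/I+ cells, with medians of 58.8 CPM in WT and 98.4 CPM in KO against 137 and 150 CPM in the uneducated groups. Cd4, Cd8a and Cd8b1 had a median of 0 CPM in every group, and so did the stromal and endothelial genes Col1a1, Dcn and Cdh5. Other T cell, endothelial and epithelial markers were present. Group medians ran from 76.9 to 141 CPM for Cd3g and from 21.8 to 34.9 CPM for Trac. They ran from 170 to 253 CPM for Pecam1 and from 19.3 to 64.9 CPM for Epcam. The 7 NK cell markers summed to between 8207 and 13450 CPM in each library.

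**Figure D1:**
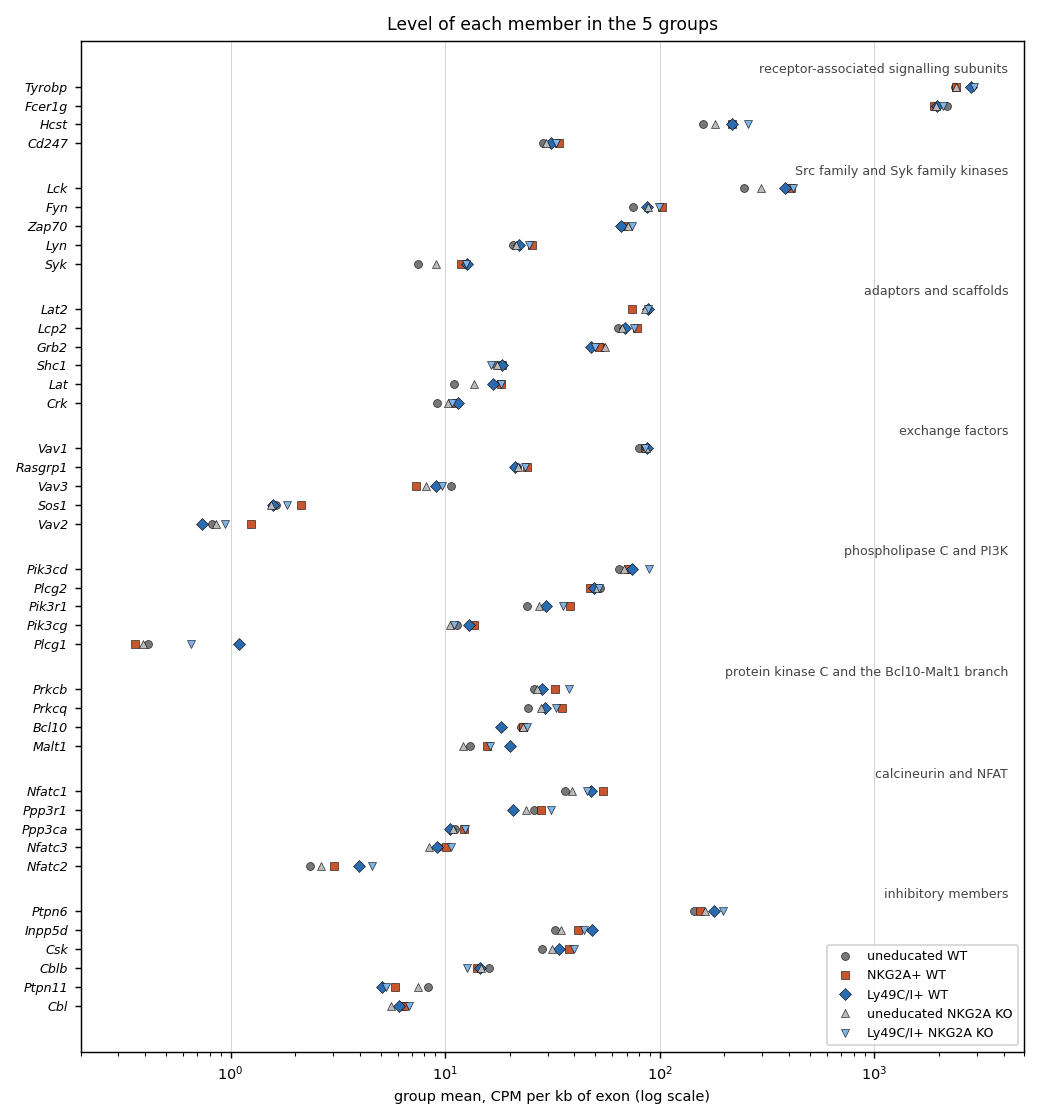
Mean level of each member in CPM per kb of exon (log axis), grouped by role, with a marker for each of the 5 groups. Tyrobp and Fcer1g lie highest, Vav2 and Plcg1 lowest, and the groups lie close together for most members.

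Levels differed among the members by several orders of magnitude, and compared per length of exon a pair of ITAM subunits stood highest. Tyrobp, which encodes the ITAM subunit DAP12, had a median of 2528 CPM per kb over the 37 libraries (range 1848 to 3260). Fcer1g, which encodes the ITAM-bearing Fc receptor gamma chain, followed at 1956 CPM per kb, and these 2 ranges overlapped. Hcst, which encodes DAP10, a subunit without an ITAM that signals through PI3K and Grb2, stood at 200.5 CPM per kb. Cd247, the CD3 zeta chain, stood at 31.5 CPM per kb. This level may be understated, since 56.4% of its exon bases lie opposite exons of other genes. Reads that fell on several features were left out.

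Within families, 1 paralogue usually dominated on the CPM per kb scale. Lck was the highest of the Src and Syk family kinases (353), ahead of Fyn (89.4), Zap70 (68.7), Lyn (22.1) and Syk (10.1). The ranges of Fyn (61.6 to 142) and Zap70 (50.3 to 88.4) overlapped, and so did those of Lyn (15.9 to 30.6) and Syk (1.60 to 22.4). Vav1 (84.1) was above Vav3 (8.82) and Vav2 (0.926) in every library. Plcg2 stood at 47.5 and Plcg1 at 0.313, with Plcg1 at 0 in some libraries. Of the inhibitory members, Ptpn6 (SHP-1) stood at 164, Inpp5d (SHIP-1) at 38.8, Csk at 34.1, Cblb at 14.4, Ptpn11 (SHP-2) at 6.36 and Cbl at 5.95.

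The sequence before the transcription start is shown for the members that were higher than in uneducated cells in 2 or more of the 3 comparisons below and held a shared motif. RefSeq promoter windows (GRCm38.p6) were matched for 34 of the 40 members, 49 windows in all. The 5 members of that kind were Hcst, Lck, Pik3r1, Syk and Inpp5d. In the 250 bases before the start, Hcst, Inpp5d and both windows of Lck held the letters AGGAAGT, a core bound by ETS family factors, and the windows of Pik3r1 and Syk did not. Capitals mark these letters, each window is written 5′ to 3′ on the strand of the gene, and positions count back from the start.
Hcst, chr7:30419855-30420104, minus strand, matches beginning at -46 and -17: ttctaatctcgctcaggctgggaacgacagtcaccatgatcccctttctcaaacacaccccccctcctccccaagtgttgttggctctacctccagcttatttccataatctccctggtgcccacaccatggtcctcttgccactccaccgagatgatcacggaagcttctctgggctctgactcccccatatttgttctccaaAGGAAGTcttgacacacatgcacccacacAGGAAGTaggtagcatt
Lck, distal start, chr4:129573642-129573891, minus strand, match beginning at -10: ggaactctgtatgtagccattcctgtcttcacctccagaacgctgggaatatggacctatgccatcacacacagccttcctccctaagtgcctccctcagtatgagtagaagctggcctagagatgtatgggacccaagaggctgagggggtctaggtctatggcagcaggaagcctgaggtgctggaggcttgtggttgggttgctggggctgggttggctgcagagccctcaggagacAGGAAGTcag
Lck, proximal start, chr4:129558373-129558622, minus strand, match beginning at -114: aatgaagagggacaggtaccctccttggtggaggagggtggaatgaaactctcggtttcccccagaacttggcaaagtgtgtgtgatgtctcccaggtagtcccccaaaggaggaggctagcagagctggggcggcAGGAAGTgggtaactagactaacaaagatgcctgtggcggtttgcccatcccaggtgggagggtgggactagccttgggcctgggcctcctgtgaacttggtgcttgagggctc
Inpp5d, chr1:87620062-87620311, plus strand, match beginning at -19: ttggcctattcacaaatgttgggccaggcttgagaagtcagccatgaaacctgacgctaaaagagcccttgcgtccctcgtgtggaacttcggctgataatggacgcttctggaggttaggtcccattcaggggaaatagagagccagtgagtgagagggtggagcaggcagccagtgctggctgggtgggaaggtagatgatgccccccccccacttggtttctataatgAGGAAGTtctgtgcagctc

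The motif was chosen after these sequences had been seen, so its counts are a description. AGGAAGT on either strand (ACTTCCT on the other) was in 16 of the 49 members' windows (32.7%) and in 7.69% of all 32851 windows of the same length. The 13 members with it were Cd247, Grb2, Hcst, Inpp5d, Lck, Nfatc2, Nfatc3, Pik3cg, Ptpn6, Shc1, Vav1, Vav2 and Vav3. Of 4 other cores searched on both strands, TGTGGT (RUNX) was in 6.12% of members' windows against 14.0% of all windows, TGANTCA (AP-1) in 4.08% against 6.75%, GGAAAA (NFAT) in 16.3% against 20.4% and AGGTGT (T-box) in 8.16% against 11.8%. A match is a run of letters and not a measured binding site.

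In WT mice, NKG2A+ uNK cells had higher mRNA levels than uneducated cells for members from the receptor subunit Hcst to the transcription factor Nfatc1. The largest rises were in Lat, Lck, Pik3r1 and Nfatc1, each 1.49 to 1.68-fold, and Vav3 fell. This fit compared 8 with 8 libraries, number 5 of both groups being left out. By edgeR's quasi-likelihood test with Benjamini-Hochberg adjustment over all genes tested (threshold 0.05), 13 of 39 members tested passed, where 16.3% of the 9349 genes tested passed. Of the 13, 11 were higher (background 8.56%) and 2 were lower (background 7.70%). The median log2 fold change was 0.27 over the 33 activating members tested, 0.02 over the 6 inhibitory members and 0.02 over all genes tested. In bulk libraries, fewer cells with a transcript and less transcript per cell cannot be told apart.

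Among the receptor subunits in this comparison, Hcst alone passed. Hcst ran from 132 to 198 CPM in the 8 NKG2A+ libraries (median 155) and from 82.8 to 145 CPM in the 8 uneducated libraries (median 107). The ranges overlapped, and 6 of 8 NKG2A+ libraries were above every uneducated library. The log2 fold change was 0.52 (SE 0.12, adjusted p = 0.00562, edgeR). Tyrobp, whose gene ends 126 bases from the end of Hcst on the opposite strand (chr7:30413760-30417585 and chr7:30417712-30419854), had a log2 difference of 0.07 (SE 0.10, adjusted p = 0.664, edgeR), and Fcer1g of -0.01 (SE 0.07). Cd247 had 0.27 (SE 0.11, adjusted p = 0.0907, edgeR), and 56.4% of its exon bases lie opposite exons of neighbouring genes, which a library kit that does not mark strand cannot separate.

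Of the kinases, 4 of 5 passed and Zap70 did not (log2 difference 0.00, SE 0.10). Lck (chr4:129548344-129573641, minus strand), the Src family kinase that phosphorylates ITAMs, ran from 1017 to 1449 CPM in NKG2A+ libraries (median 1159) and from 477 to 1016 CPM in uneducated libraries (median 752). The 2 groups did not overlap, and the log2 fold change was 0.68 (SE 0.14, adjusted p = 0.00311, edgeR). Fyn, a second Src family kinase, rose from a mean of 334 CPM ± 69.2 (SD, n = 8) to 447 ± 83.5, a log2 fold change of 0.42 (adjusted p = 0.0261, edgeR). The call for Fyn was lost, with adjusted p from 0.0539 to 0.0581, without uneducated WT 3, 4 or 8 or without NKG2A+ WT 6. Lyn rose from 82.2 ± 8.97 to 102 ± 15.2 CPM (log2 fold change 0.31, adjusted p = 0.0435, edgeR), and leaving out any of 11 of the 16 libraries ended that call, with adjusted p up to 0.0937 without NKG2A+ WT 1. Syk, the kinase that docks on phosphorylated ITAMs, rose from 77.0 ± 22.9 to 114 ± 40.7 CPM (log2 fold change 0.57, adjusted p = 0.0462, edgeR). NKG2A+ WT 6 held the highest Syk level, 210 CPM against 121 CPM in the next library. Leaving out any of 9 of the 16 libraries ended the call for Syk, with adjusted p up to 0.111 without NKG2A+ WT 6 and a log2 fold change of 0.39.

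Adaptors did not move together. Lat (chr7:126363824-126369570, minus strand), the membrane scaffold on which phospholipase C gamma and Grb2 assemble, ran from 35.7 to 74.0 CPM in NKG2A+ libraries (median 49.1) and from 21.9 to 43.9 CPM in uneducated libraries (median 27.4). In 7 of 8 NKG2A+ libraries Lat was above every uneducated library. The log2 fold change of 0.75 (SE 0.17, adjusted p = 0.00493, edgeR) was the largest rise among the members that passed here. Lcp2 (SLP-76), the adaptor that links Lat to Vav proteins, rose from 279 ± 30.7 to 348 ± 41.1 CPM (log2 fold change 0.32, adjusted p = 0.0138, edgeR). Lat2, a Lat-like adaptor also called NTAL, fell from 233 ± 19.7 to 196 ± 24.1 CPM (log2 fold change -0.25, adjusted p = 0.0478, edgeR), but leaving out any of 14 of the 16 libraries ended this call, with adjusted p up to 0.0908 without uneducated WT 3. Exons of Rfc2 lie opposite 36.3% of the exon bases of Lat2. Grb2 and Crk had log2 differences of -0.03 and 0.30, Shc1 had a fold of 0.999, and none of the 3 passed.

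Vav3 (chr3:109340653-109685698, plus strand), an exchange factor for small GTPases, moved opposite to most members. It ran from 26.4 to 52.1 CPM in NKG2A+ libraries (median 44.4) and from 50.8 to 77.7 CPM in uneducated libraries (median 61.3), and 7 of 8 NKG2A+ libraries were below every uneducated library. Fitted as a log2 fold change, the fall was -0.59 (SE 0.14, adjusted p = 0.00787, edgeR). Vav1, the dominant Vav gene, had 0.08 (SE 0.09) and Vav2, near the filter, 0.67 (SE 0.56). The Ras exchange factors Sos1 (0.43, adjusted p = 0.212, edgeR) and Rasgrp1 (log2 difference 0.00, SE 0.15) did not pass.

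Pik3r1 (chr13:101680563-101768217, minus strand), a regulatory subunit of class I PI3K, had the smallest p of all members. It ran from 357 to 444 CPM in NKG2A+ libraries (median 370) and from 215 to 318 CPM in uneducated libraries (median 234), with no overlap. This was a log2 fold change of 0.63 (SE 0.08, adjusted p = 5.66e-05, edgeR). The catalytic subunits Pik3cd (0.05, SE 0.13) and Pik3cg (0.13, SE 0.11) did not pass, nor did Plcg2 (-0.16, SE 0.13).

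Prkcq (chr2:11172108-11301222, plus strand), protein kinase C theta, which signals to NF-kappaB, ran from 213 to 259 CPM in NKG2A+ libraries (median 245) and from 135 to 230 CPM in uneducated libraries (median 173). In 7 of 8 NKG2A+ libraries it was above every uneducated library, and its log2 fold change was 0.43 (SE 0.10, adjusted p = 0.00451, edgeR). Prkcb, Malt1 and Bcl10 had log2 differences of 0.36, 0.28 and 0.11, with adjusted p of 0.0609, 0.129 and 0.574 by edgeR. Prkcb passed under 9 of 27 alternatives, among them DESeq2 and leaving out uneducated WT 6, uneducated WT 9 or NKG2A+ WT 4 (adjusted p between 0.0113 and 0.0427, edgeR). Nfatc1, a calcium-driven transcription factor, ran from 341 to 482 CPM in NKG2A+ libraries (median 389) and from 205 to 365 CPM in uneducated libraries (median 249), 6 of 8 being above every uneducated library. The log2 fold change was 0.58 (SE 0.10, adjusted p = 0.000709, edgeR). Nfatc2, Nfatc3 and the calcineurin subunits Ppp3r1 and Ppp3ca had log2 differences of 0.38, 0.12, 0.07 and 0.19 and did not pass.

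Csk was the 1 inhibitory member that passed in NKG2A+ cells. It encodes the kinase that holds Src family kinases inactive. Csk (chr9:57626646-57653631, minus strand) ran from 113 to 175 CPM in NKG2A+ libraries (median 140) and from 64.9 to 136 CPM in uneducated libraries (median 105), and 5 of 8 NKG2A+ libraries were above every uneducated one. The log2 fold change was 0.42 (SE 0.14, adjusted p = 0.0395, edgeR), and leaving out any of 9 of the 16 libraries ended the call, with adjusted p up to 0.0784 without uneducated WT 1. Inpp5d (0.31), Ptpn6 (0.06), Cbl (-0.02), Cblb (-0.21) and Ptpn11 (-0.44) did not pass. Inpp5d passed without uneducated WT 6 (adjusted p = 0.0119, edgeR), with all 5 groups in 1 fit and with offsets for GC content and length. Without uneducated WT 3, or without uneducated WT 4, 8 members passed in place of 13, with 1123 and 1187 genes called in place of 1520. With all 9 and 9 libraries 11 members and 1404 genes passed. Without NKG2A+ WT 9, one of the libraries with the fewest genes, 10 members and 1451 genes passed. The call held under every alternative tried for 8 members (Hcst, Lat, Lcp2, Vav3, Lck, Pik3r1, Prkcq and Nfatc1).

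**Figure D2:**
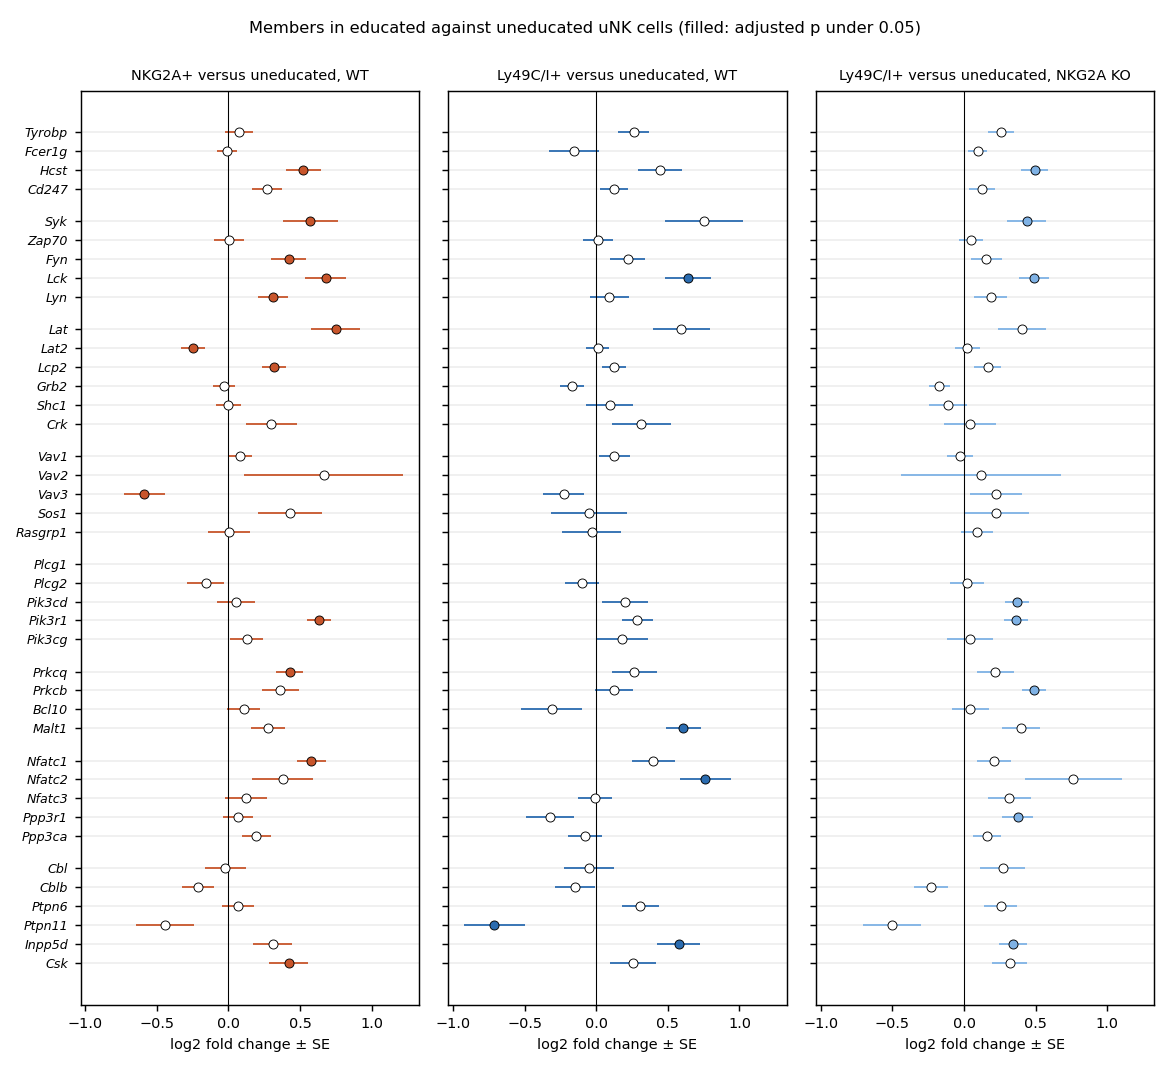
Log2 fold change (points) with its SE (bars) for each tested member in 3 comparisons of educated with uneducated uNK cells, in order of role from receptor subunits to inhibitory members; filled points have an adjusted p under 0.05 (edgeR). Filled points number 13, 5 and 8 from left to right, and Plcg1 (all panels) and Vav2 (middle panel) have no point because they fell under the filter.

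Markers that T cells and other cells express moved with the same contrast. Cd3e and Cd3d were higher in NKG2A+ than in uneducated WT cells (log2 fold changes 1.87 and 1.12, adjusted p = 0.00297 and 0.00104, edgeR), with Cd3e at a median of 13.2 CPM against 3.07 CPM over 9 libraries each. Cd3g and Trac, the most abundant genes of the list, had log2 differences of -0.19 and -0.05 (adjusted p = 0.625 and 0.875, edgeR), and the 4 other markers were below the filter on low values. The 8 T cell markers summed to between 95.3 and 229 CPM in NKG2A+ and between 86.5 and 187 CPM in uneducated WT libraries. Itgam (CD11b) was higher (1.04) and Epcam and Pecam1 were lower (-1.32 and -0.77). Epcam and Pecam1 made up most of the stroma, endothelium and epithelium list, which summed to between 152 and 246 CPM in NKG2A+ and between 289 and 452 CPM in uneducated WT libraries. The 10 macrophage, monocyte and granulocyte markers summed to between 70.4 and 352 CPM in NKG2A+ and between 61.7 and 162 CPM in uneducated WT libraries. The part of these markers in the members' differences was not tested.

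In WT mice, Ly49C/I+ uNK cells had higher levels of Malt1, Nfatc2, Lck and Inpp5d and lower levels of Ptpn11 than uneducated cells. Of 38 members tested, 5 passed in 6 against 9 libraries, where 9.20% of the 9292 genes tested passed. They were 4 higher (background 4.50%) and 1 lower (background 4.70%). In this fit the share of members that passed (13.2%) was near the background. The median log2 fold change was 0.12 over the 32 activating members, 0.10 over the 6 inhibitory members and 0.01 over all genes. Counts depended on the fit. With the replicate number as a block 10 members and 990 genes passed, and with all 5 groups in 1 fit 10 members and 1528 genes. Without the filter on low CPM 2 members and 451 genes passed.

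Lck ran from 1032 to 1253 CPM in Ly49C/I+ libraries (median 1121) and from 477 to 1016 CPM in uneducated libraries (median 687). The groups did not overlap, and the log2 fold change was 0.64 (SE 0.16, adjusted p = 0.0185, edgeR). Malt1, the paracaspase of the Bcl10 complex that activates NF-kappaB, ran from 284 to 437 CPM (median 360) against 162 to 271 CPM (median 240). Every Ly49C/I+ library was above every uneducated one, with a log2 fold change of 0.61 (SE 0.12, adjusted p = 0.00587, edgeR). Nfatc2 (chr2:168476410-168601657, minus strand), a low-level NFAT gene, ran from 34.6 to 48.9 CPM (median 42.4) against 14.9 to 30.7 CPM (median 27.6). These groups did not overlap either, and the log2 fold change was 0.76 (SE 0.18, adjusted p = 0.0132, edgeR).

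Inpp5d (chr1:87620312-87720507, plus strand), which encodes the lipid phosphatase SHIP-1, ran from 287 to 435 CPM in Ly49C/I+ libraries (median 368) and from 177 to 393 CPM in uneducated libraries (median 225). All 6 Ly49C/I+ libraries were above the uneducated median and 1 was above every uneducated library. A log2 fold change of 0.58 was fitted (SE 0.15, adjusted p = 0.0245, edgeR). The call for Inpp5d was lost without Ly49C/I+ WT 1, 2, 5 or 7 (adjusted p 0.0511 to 0.0656). Ptpn11 (chr5:121130533-121191397, minus strand), which encodes the tyrosine phosphatase SHP-2, ran from 32.5 to 52.9 CPM (median 35.7) against 31.8 to 97.0 CPM (median 54.9). All 6 Ly49C/I+ libraries were below the uneducated median, within the uneducated range. The log2 fold change was -0.71 (SE 0.21, adjusted p = 0.0433, edgeR), and leaving out any of 9 of the 15 libraries ended the call, with adjusted p up to 0.0915 without Ly49C/I+ WT 7. Ptpn6 had 0.31 (SE 0.13, adjusted p = 0.133, edgeR) and Csk 0.26 (SE 0.16, adjusted p = 0.336, edgeR).

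Several members that passed in NKG2A+ cells did not pass here, but the libraries differed. The NKG2A+ fit left out uneducated WT 5, and this one kept it. Lat had 0.59 (adjusted p = 0.0646), Syk 0.75 (0.0886), Hcst 0.44 (0.0795), Nfatc1 0.40 (0.102) and Pik3r1 0.29 (0.101), the values in brackets being adjusted p by edgeR. Tyrobp had 0.26 (SE 0.11, adjusted p = 0.13, edgeR), with all 6 Ly49C/I+ libraries above the uneducated median. The 2 comparisons share uneducated libraries, so their values are not independent. The library uneducated WT 5 held the highest Fcer1g level of its group, 3752 CPM against 1977 CPM in the next library. It held the lowest Syk level, 15.0 CPM against 48.2 CPM in the next library. Among others, it was also lowest for Shc1, Pik3cg, Ppp3r1, Pik3cd, Prkcq and Rasgrp1. Without uneducated WT 5, 8 members passed in place of 5, with 1227 genes called in place of 855. Those gained were Hcst (adjusted p = 0.02225), Syk (0.02198) and Ppp3r1 (0.02869), all by edgeR. Without Ly49C/I+ WT 1, 2 or 7 the number of members was 3, with 674, 671 and 466 genes called. Leaving out uneducated WT 5 and Ly49C/I+ WT 5, the pair with the fewest genes here, gave 6 members and 986 genes. Epcam and Pecam1 were lower in Ly49C/I+ WT cells too (log2 fold changes -1.10 and -0.68), and the macrophage, monocyte and granulocyte markers summed to between 57.2 and 477 CPM, against between 61.7 and 162 CPM in uneducated cells. Their part in the members' differences was not tested.

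**Figure D3:**
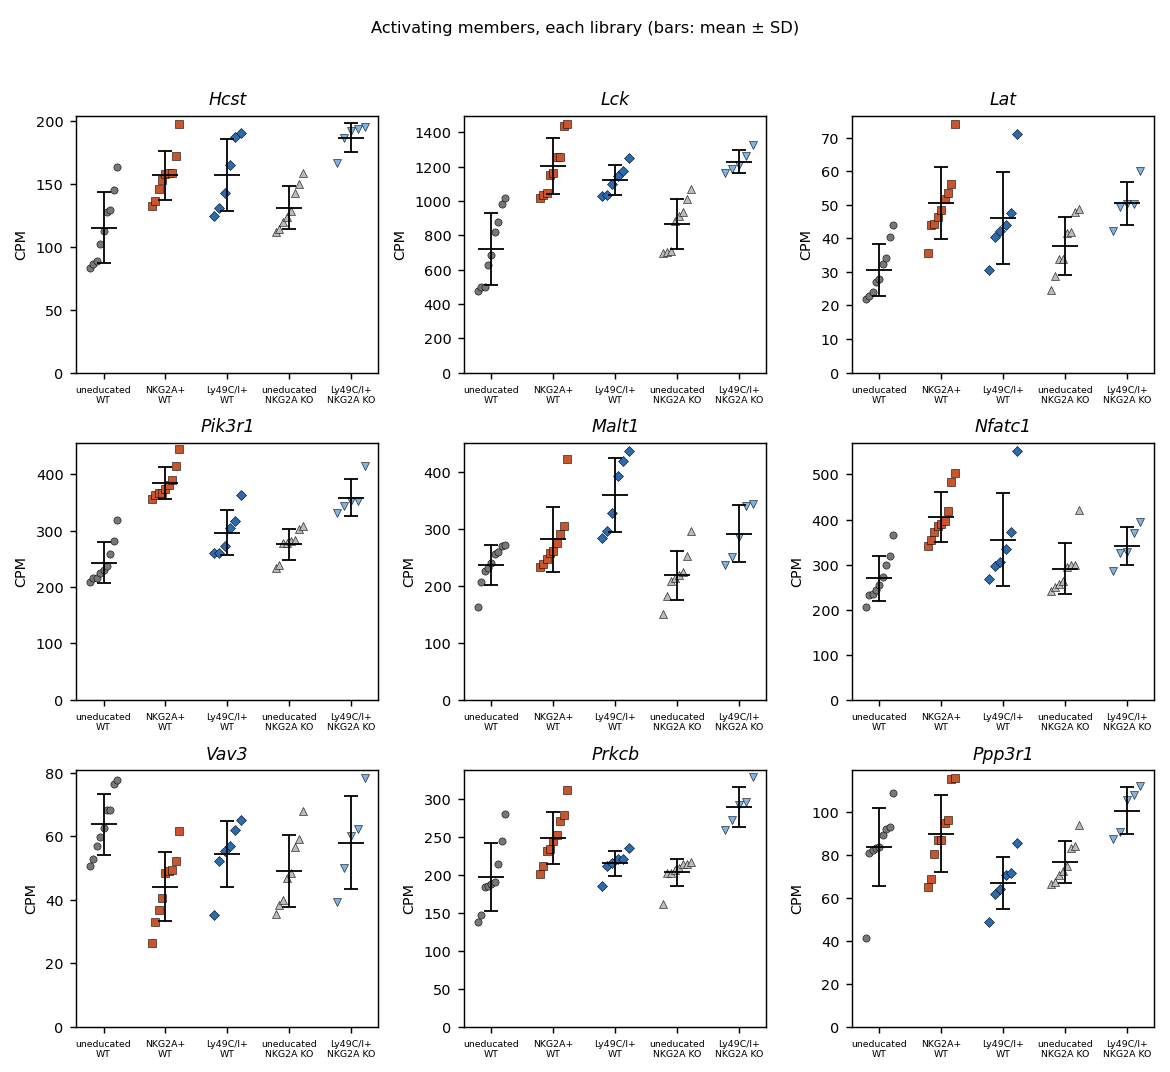
CPM of 9 activating members in each library of the 5 groups, drawn from low to high within a group (an order with no meaning), with the mean and SD as bars. By group mean, Lck, Hcst and Pik3r1 lie higher in each educated group than in the uneducated group of the same genotype, Malt1 is highest in Ly49C/I+ WT, and Prkcb and Ppp3r1 are highest in Ly49C/I+ NKG2A KO.

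Between the 2 kinds of educated WT cells, 1 member passed, Pik3r1, which was higher in NKG2A+ cells. Of 39 members tested 2.56% passed, against 2.73% of the 9308 genes tested. Pik3r1 ran from 357 to 444 CPM in 9 NKG2A+ libraries (median 373) and from 261 to 363 CPM in 6 Ly49C/I+ libraries (median 288). In 8 of 9 NKG2A+ libraries it was above every Ly49C/I+ library, and the log2 fold change was 0.37 (SE 0.08, adjusted p = 0.0149, edgeR). The call was lost under 1 of 25 alternatives. Tyrobp was lower in 8 of 9 NKG2A+ libraries than in every Ly49C/I+ library, without passing (log2 difference -0.23, SE 0.07, adjusted p = 0.0851, edgeR). Malt1 had -0.35 (SE 0.13, adjusted p = 0.133, edgeR), Ppp3r1 0.43 (SE 0.14, adjusted p = 0.113, edgeR) and Lat2 -0.26 (SE 0.08, adjusted p = 0.108, edgeR). Without NKG2A+ WT 4, or without NKG2A+ WT 6, 2 members passed, with 189 and 283 genes called in place of 254.

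In NKG2A KO mice, where education through NKG2A is absent, Ly49C/I+ cells had higher levels of Lck and Inpp5d than uneducated cells, as in WT, together with Hcst, Prkcb, Pik3cd, Pik3r1, Ppp3r1 and Syk. Of 39 members tested, 8 passed in 5 against 8 libraries, where 16.3% of the 9299 genes tested passed. In this fit the share of members that passed (20.5%) was near the background. All 8 were higher (background 7.34%) and none was lower (background 8.99%). An unadjusted p under 0.05 was found for 17 members and for 2892 of the 9299 genes tested. The median log2 fold change was 0.19 over activating members, 0.26 over inhibitory members and 0.02 over all genes. With the replicate number as a block 7 members and 748 genes passed, and with all 5 groups in 1 fit 5 members and 1108 genes.

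Hcst measured 167, 193, 186, 192 and 195 CPM in the 5 Ly49C/I+ KO libraries and from 112 to 159 CPM in the 8 uneducated KO libraries (median 126). The groups did not overlap, and the log2 fold change was 0.49 (SE 0.10, adjusted p = 0.00291, edgeR). Lck measured 1161, 1325, 1264, 1209 and 1189 CPM against 697 to 1071 CPM (median 898). These groups did not overlap either, with a log2 fold change of 0.49 (SE 0.10, adjusted p = 0.00475, edgeR). Syk rose from 85.2 CPM ± 17.0 (SD, n = 8) to 117 ± 16.4 (n = 5), a log2 fold change of 0.44 (adjusted p = 0.0372, edgeR). Leaving out any of 9 of the 13 libraries ended the call for Syk, with adjusted p up to 0.0909 without Ly49C/I+ NKG2A KO 4. Zap70, which can take the same place as Syk, had 0.05 (SE 0.08).

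Pik3cd and Pik3r1, which encode a catalytic and a regulatory PI3K subunit that can form a complex, both passed in the KO. Pik3cd (chr4:149649168-149702571, minus strand) measured 612, 572, 495, 577 and 525 CPM against 381 to 527 CPM (median 413) in uneducated KO libraries. In 3 of 5 Ly49C/I+ libraries it was above every uneducated one, with a log2 fold change of 0.37 (SE 0.08, adjusted p = 0.00643, edgeR). Pik3r1 measured 352, 414, 331, 343 and 353 CPM against 233 to 307 CPM (median 280). The groups did not overlap, and the log2 fold change was 0.36 (SE 0.08, adjusted p = 0.00777, edgeR).

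Prkcb (chr7:122288751-122634402, plus strand), protein kinase C beta, had the smallest p of the members in the KO. It measured 293, 329, 260, 273 and 297 CPM against 162 to 218 CPM (median 208), with no overlap, and a log2 fold change of 0.49 (SE 0.08, adjusted p = 0.00114, edgeR). Ppp3r1 (chr11:17159263-17200375, plus strand), the calcium-binding calcineurin subunit, measured 106, 87.6, 90.6, 108 and 112 CPM against 66.5 to 94.1 CPM (median 73.7), with 3 of 5 above every uneducated library. Its log2 fold change was 0.38 (SE 0.11, adjusted p = 0.0270, edgeR), the call was lost without Ly49C/I+ NKG2A KO 4, 7 or 8 (adjusted p 0.0642 to 0.0707), and 14.3% of its exon bases are shared with Wdr92. Nfatc2 had the largest log2 difference of the members, 0.76, with an SE of 0.34 and an adjusted p of 0.13 (edgeR), and its 5 values spread from 22.1 to 78.8 CPM. Malt1 had 0.40 (SE 0.14, adjusted p = 0.0519, edgeR).

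Inpp5d measured 400, 326, 319, 380 and 261 CPM in Ly49C/I+ KO libraries against 238 to 313 CPM (median 257), and 4 of 5 were above every uneducated library. Its log2 fold change was 0.34 (SE 0.10, adjusted p = 0.0238, edgeR), and the call was lost without Ly49C/I+ NKG2A KO 4 or 7 (adjusted p 0.0817 to 0.0821). Ptpn11 measured 33.4, 67.2, 29.8, 33.0 and 36.2 CPM against 41.7 to 80.8 CPM (median 54.2). In 4 of 5 Ly49C/I+ libraries it was below every uneducated library, and the fifth, Ly49C/I+ NKG2A KO 5, was among the libraries with the fewest genes. The log2 difference was -0.50 (SE 0.20, adjusted p = 0.0996, edgeR) with this library and -0.77 (adjusted p = 0.00782, edgeR) without it, when 9 members passed in place of 8. Without Ly49C/I+ NKG2A KO 7 the number was 5. Genes called numbered 1519 with all libraries, 1275 without Ly49C/I+ NKG2A KO 5 and 1099 without Ly49C/I+ NKG2A KO 7. Itgam was higher and Epcam lower in this comparison too (log2 fold changes 0.87 and -1.31), whereas Cd3e was at a median of 2.45 CPM in Ly49C/I+ and 5.04 CPM in uneducated KO cells. The T cell markers summed to between 131 and 202 CPM against between 119 and 241 CPM, and the part of any of these in the members' differences was not tested.

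**Figure D4:**
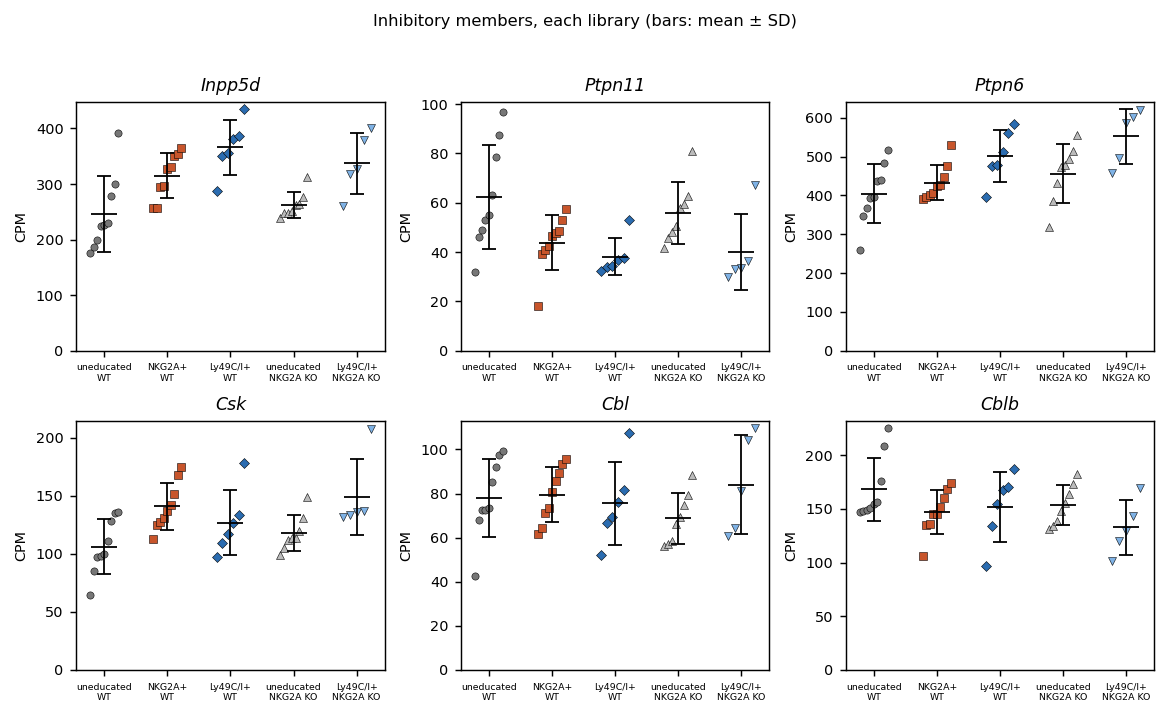
CPM of the 6 inhibitory members in each library of the 5 groups, drawn from low to high within a group (an order with no meaning), with the mean and SD as bars. Inpp5d lies higher and Ptpn11 lower in Ly49C/I+ libraries than in most uneducated libraries of the same genotype, and Cbl and Cblb overlap across all groups.

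The WT and KO comparisons of Ly49C/I+ with uneducated cells share no library, so the members can be set side by side. Lck and Inpp5d passed in both, which is 2 of 5 members called in WT and 2 of 8 called in the KO. Over all genes tested in both, 521 were called in both, of 851 called in WT and 1507 in the KO. Of 38 members tested in both, 26 had the same sign (68.4%), and 73.4% of the 9128 genes tested in both did. Pearson's r between the log2 fold changes was 0.71 across the 38 members and 0.70 across all genes. These are correlations across genes, which are not independent replicates. Of the members called in the KO alone, Ppp3r1 had a log2 difference of -0.32 in WT and 0.38 in the KO, and Prkcb had 0.13 and 0.49. NKG2A+ WT and Ly49C/I+ KO cells, whose comparisons share no library either, had 4 called members in common, Hcst, Syk, Lck and Pik3r1, of 13 and 8 called. Over all genes tested in both, 678 were called in both, of 1507 and 1513. There, 33 of 39 members had the same sign (84.6%), against 71.8% of 9174 genes.

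**Figure D5:**
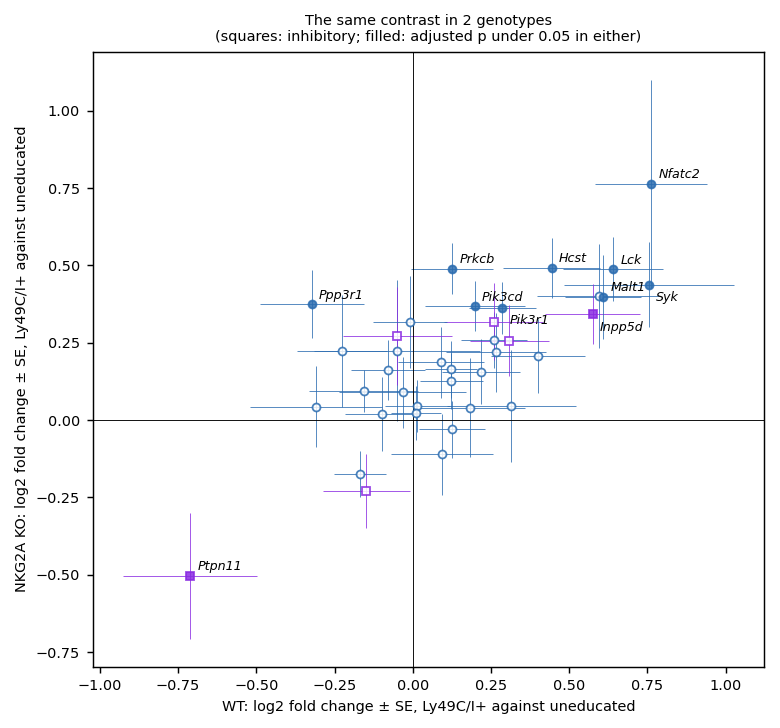
Log2 fold change with SE of each member for Ly49C/I+ against uneducated cells in WT (x axis) and NKG2A KO (y axis), with inhibitory members as squares and members that passed in either comparison filled and named. Lck and Inpp5d, which passed in both, lie in the upper right, Ptpn11 in the lower left, and Ppp3r1 is the filled point left of 0 in WT and above 0 in the KO.

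Between NKG2A KO and WT mice, no member passed the threshold in either cell population. KO cells cannot be sorted by NKG2A, so KO gates can hold cells that in WT would be NKG2A+ or positive for both receptors. In these comparisons, loss of NKG2A and such a difference in the cells sorted cannot be told apart. In uneducated cells (8 KO against 9 WT libraries) 0 of 39 members passed by edgeR's quasi-likelihood test, where the background was 0% of 9288 genes, and 1 member, Vav3, had an unadjusted p under 0.05 (log2 difference -0.37, SE 0.13, adjusted p = 0.636, edgeR). An unadjusted p under 0.05 was found for 619 of the 9288 genes there. The likelihood ratio test and DESeq2 also called 0 members in uneducated cells. In Ly49C/I+ cells (5 KO against 6 WT libraries) 0 of 39 members passed, with a background of 0% of 9344 genes. An unadjusted p under 0.05 was found for 992 of these genes and for 5 members. These 5 were Prkcb (0.42, SE 0.09), Ppp3r1 (0.58, SE 0.14), Pik3cd (0.25), Pik3r1 (0.27) and Malt1 (-0.31). Prkcb and Ppp3r1 had adjusted p of 0.137 and 0.181 by the quasi-likelihood test, every KO library of each being above every WT library, and these 2 passed by the likelihood ratio test and by DESeq2. The test of whether Ly49C/I+ and uneducated cells differed unequally in WT and KO passed for 0 of 39 members, against 0% of 9322 genes. By this test, 407 of these genes had an unadjusted p under 0.05. For it, 2 members had an unadjusted p under 0.05, Ppp3r1 (0.71, SE 0.21) and Prkcb (0.38, SE 0.16), both with an adjusted p of 1.00 (edgeR), and the likelihood ratio test and DESeq2 called 0 members.

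Plcg1 and, in 1 comparison, Vav2 were under the filter of 5 CPM. Plcg1, the phospholipase C gamma of T cell receptor signalling, had medians of 2.88, 2.46, 6.93, 1.76 and 2.18 CPM in uneducated WT, NKG2A+ WT, Ly49C/I+ WT, uneducated KO and Ly49C/I+ KO cells. An exact two-sided permutation test on log2(CPM + 1), adjusted over 7 tests, gave its lowest adjusted p, 0.445, for the WT comparisons of Ly49C/I+ cells, where the mean differed by 1.15 from uneducated cells (unadjusted p = 0.127, exact permutation test). Vav2 differed by 0.02 between Ly49C/I+ and uneducated WT cells (adjusted p = 0.986, exact permutation test).

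Other genes of the same pathways, from a list of 66 activating and 31 inhibitory genes, were counted beside the members. This list too was chosen with earlier results of these data known. In NKG2A+ against uneducated WT cells, 12 of 59 other activating genes tested were higher and 5 lower. Those with the smallest p were the phosphatase gene Ptprc (CD45, log2 fold change 0.46), the exchange factor gene Rasgrp2 (1.28) and the adaptor gene Grap2 (0.86) among the higher, and Sh2d1b2 (-1.36), an adaptor of SLAM family receptors, Akt1 (-0.38) and Itpr1 (-0.80) among the lower. Of 27 other inhibitory genes, 10 were higher and 0 lower, led by Pag1 (1.14), the membrane anchor of Csk, Dgka (1.22), which removes diacylglycerol, and Dok2 (0.51).

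In Ly49C/I+ against uneducated WT cells, 3 of 59 other activating genes were higher (Ikbkb 0.50, Skap1 0.64, Nck2 1.03) and 2 lower (Rac1 -0.34, Sh2d1b2 -1.07). Of 26 other inhibitory genes, 5 were higher and 0 lower, led by Tnfaip3 (0.64), Spry2 (0.71) and Dgka (0.89). In the KO, 11 of 60 other activating genes were higher, led by Ptprc (0.41), Fgr (0.56) and Txk (0.36), and 4 lower, led by Sh2d1b2 (-1.22), Rac1 (-0.30) and Nfkb1 (-0.37). Of 27 other inhibitory genes, 8 were higher and 0 lower there, led by Tnfaip3 (0.54), Dok2 (0.28) and Pag1 (0.90). Between NKG2A+ and Ly49C/I+ WT cells, Ptprc (0.21), Pag1 (0.91) and Sla (0.59) were higher in NKG2A+ cells. Across the 3 comparisons with uneducated cells the other inhibitory genes that passed were all higher, 10, 5 and 8 in number. These were 37% (NKG2A+, WT), 19.2% (Ly49C/I+, WT) and 29.6% (Ly49C/I+, KO) of those tested, and the other activating genes that passed in either direction were 28.8%, 8.47% and 25%, beside 16.3%, 9.20% and 16.3% of all genes.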

How the data were processed

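RNA was made into cDNA with the SMART-Seq v4 kit and into libraries with Nextera XT, per the labels. Per the study's methods the authors trimmed reads with Trim Galore 0.5.0, mapped them with STAR 2.7.1 to GRCm38 (Ensembl release 103) and deposited raw counts per gene for each library. No source used here names the counting program or its strand setting. Between 2.69 and 6.83% of reads fell on no feature and between 4.04 and 4.60% on several, and these lines were left out. The members and gene lists were chosen with earlier results of these data known. Counts were tested with edgeR 4.0.16 (R 4.3.3): TMM scaling, genes with 5 CPM in a share of 0.5 of the libraries compared, a quasi-likelihood test and Benjamini-Hochberg adjustment, with only the groups compared in each fit. NKG2A+ and uneducated WT libraries numbered 5 were left out of their comparison, following the study's supplementary table. No pair of libraries of a group agreed within sampling noise. The authors also corrected for GC content and length, which here is an alternative (5 degrees of freedom). CPM use effective library sizes over all 37 libraries, and exon lengths are from GENCODE M21, which named 52147 of 53700 identifiers. The rule for names was every member past the threshold, the 6 activating members with the smallest p in full, and the 3 smallest p in each direction among other pathway genes. Other members are named where they share a role with one that passed. The scripts were tested on simulated data, and DESeq2 1.42.0, scipy and the alternatives are given in the closing section.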

Additional observations from a re-analysis of the deposited data

Results flagged for a closer look

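Of 200 groups of a member's values (40 members, 5 groups), 22 had a highest or lowest library whose gap to the next exceeded the limit that chance passes in about 1 of 20 groups. Uneducated WT 5 stood apart for Fcer1g (high, 3752 CPM), Shc1 (low, 45.4 CPM), Pik3cg (low, 35.6 CPM) and Ppp3r1 (low, 41.4 CPM), and uneducated WT 1 for Sos1 (high, 34.7 CPM). In NKG2A+ WT the high libraries were number 6 for Syk (210 CPM), 1 for Plcg1 (8.53 CPM), 9 for Plcg2 (323 CPM) and 4 for Malt1 (422 CPM), and the low ones were number 9 for Crk (33.6 CPM) and 6 for Ptpn11 (18.3 CPM).

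In Ly49C/I+ WT the high libraries were number 8 for Vav1 (441 CPM), 1 for Fyn (469 CPM), and 5 for Ptpn11 (52.9 CPM) and Nfatc1 (553 CPM). In uneducated NKG2A KO they were number 4 for Pik3cd (527 CPM) and Nfatc1 (422 CPM) and 1 for Rasgrp1 (162 CPM), with number 3 low for Prkcb (162 CPM). Ly49C/I+ NKG2A KO 5 was high for Pik3r1 (414 CPM), Ptpn11 (67.2 CPM) and Csk (207 CPM). Uneducated WT 5, NKG2A+ WT 9, Ly49C/I+ WT 5 and Ly49C/I+ NKG2A KO 5 are the 4 libraries with the fewest genes detected, and the part of that low number in these values was not tested.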

How the results depend on the processing

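No member reversed direction while called under any alternative. Members called in every alternative numbered 8 of 13 for NKG2A+ against uneducated WT cells, 1 of 5 (Malt1) for Ly49C/I+ against uneducated WT cells, 0 of 1 for NKG2A+ against Ly49C/I+ cells and 3 of 8 (Hcst, Lck and Prkcb) for the KO. Without the filter on low CPM, calls fell to 8, 2 and 5 members in the first, second and last of these. Genes called fell to 1014, 451, 104 and 889 in these comparisons. For Ly49C/I+ against uneducated WT cells, the likelihood ratio test and DESeq2 called 8 members each, beside 1148 and 1240 genes. A fit of all 5 groups called 10 members and 1528 genes there, and 5 members and 1108 genes in the KO. For NKG2A+ against Ly49C/I+ cells, the likelihood ratio test called 442 genes and DESeq2 558 genes and 2 members. For KO against WT, the likelihood ratio test and DESeq2 called 1 gene each in uneducated cells, 60 and 118 genes with 2 members in Ly49C/I+ cells, and 1 gene each for the genotype difference, and the fit of all groups called 18 genes in Ly49C/I+ cells. The unadjusted p was under 0.05 for 619, 992 and 407 genes in these 3. With offsets for GC content and length, 14, 5, 1 and 10 members were called in the 4 comparisons within a genotype. Genes called with these offsets numbered 1543, 823, 171 and 1384. The median log2 fold change of activating members in NKG2A+ cells was then 0.16 in place of 0.27. Apart from the fewer genes or libraries that some alternatives use, the cause was not tested.

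Replicate numbers were taken from the titles, and for Ly49C/I+ WT from the descriptions. Titles and descriptions give different numbers for uneducated WT 5 and 4 of the Ly49C/I+ WT libraries. The numbers used did not meet the criterion for pairing, a correlation above 0.1 in every pair, so the main fits did not pair libraries. Missing this criterion does not show that the libraries are unpaired. Deviations correlated above 0.1 in 4 of 9, 4 of 6, 2 of 6 and 1 of 5 pairs in the comparisons within a genotype. Median correlations were 0.099, 0.126, 0.083 and 0.042 for pairs of the same number, and 0.004, -0.022, -0.011 and -0.006 for other pairs. In 6, 5, 6 and 3 of the pairs of the same number, the library of the first-named group correlated best with the other of its number. This is a hint from the data and not from the design. With the number as a block, 14, 10, 3 and 7 members were called, beside 1717, 990, 279 and 748 genes. With GC content and length offsets added, 14, 8, 0 and 6 members were called, beside 1670, 896, 153 and 634 genes. Pik3r1 was at adjusted p = 0.0678 (edgeR) in the third of these. An alternative chosen after seeing the data, the libraries of the block fitted without it, called 13, 7, 2 and 3 members. It called 1520, 848, 243 and 508 genes. Leaving out the 4 libraries with the fewest genes, also chosen after seeing the data, gave 10, 6, 1 and 9 members. Genes called then numbered 1451, 986, 227 and 1275. For NKG2A+ against uneducated WT cells, Ptpn11 (lower) and Inpp5d (higher) passed with the block, with and without the offsets, at adjusted p down to 0.018 and 0.00781. Leaving out 1 library at a time gave 8 to 13, 3 to 8, 1 to 2 and 5 to 9 members. Genes called then ran from 1123 to 1714, 466 to 1227, 147 to 306 and 967 to 1763 in the same order. For KO against WT Ly49C/I+ cells they ran from 0 to 15. The median log2 fold change of activating members in NKG2A+ cells was 0.16 without NKG2A+ WT 4. At these depths Plcg1 and Vav2 lie near or under 5 CPM, and no conclusion about them is drawn.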
